A study of Arabidopsis thaliana with 18 samples.

Results

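The transcriptomes of 6 tt8 insertion lines of Arabidopsis thaliana were set against those of 8 insertion lines labelled for the other flavonoid loci BAN, TT1, TT3 and TT5. The libraries were chosen by their labelled allele and make up 14 of the 18 in the series, 6 on the tt8 side and 8 on the other. The 4 libraries of ttg1 and of the wild type Col-0 were not used, so each statement compares mutants with mutants and none gives a distance from the wild type.

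The mutants belong to the transparent testa (tt) class, so called because their seeds lack the brown pigment of the seed coat, and the labels call them putative. All lines had been shaken for 4 days in 3% sucrose under 24 h of light, and 1 µg of total RNA from each went into a stranded mRNA library. The tt8 lines were tt8-7 (GK-089H05), tt8-8 (SALK_010879), tt8-9 (SALK_137974), tt8-10 (SALK_205661), tt8-11 (SALK_206210) and tt8-12 (SAIL_239_C11). The others were ban-6 (SALK_052000), ban-7 (SAIL_874_C01), tt1-4 (SALK_018552), tt1-5 (SALK_109926), tt3-3 (SAIL_649_G09), tt3-4 (SAIL_1180_D08), tt5-3 (SAIL_641_E10) and tt5-4 (SALK_023403). Each allele is 1 line with 1 library, and the labels give neither the position of an insertion nor its effect on the transcript. Differences between alleles therefore cannot be told apart from differences between cultures, and the p-values below measure the spread between these libraries.

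TT8 is a basic helix-loop-helix (bHLH) protein that joins R2R3-MYB proteins and the WD40 protein TTG1 in the MBW complex. That complex activates the late genes of flavonoid synthesis, from dihydroflavonol reductase (DFR) onward, which lead to red anthocyanins in seedlings and to tannins in the seed coat. The related bHLH proteins GL3 and EGL3 share part of this work in vegetative tissue, and TT8 is known to take part in its own activation. BAN encodes anthocyanidin reductase, TT3 is DFR and TT5 is chalcone isomerase (CHI), whereas TT1 encodes a zinc finger protein of the seed coat.

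The libraries held 13766935 to 24387446 counts in the tt8 lines and 13076113 to 27145377 in the others. Levels are given as counts per 1000000 of each library after TMM scaling (CPM), and they compare a gene between libraries, not genes with each other. In the tt5 lines CHI, the gene of the labelled locus, stood at 4.18 and 4.56 CPM, against 32.6 to 87.5 CPM in the other 12 libraries. DFR was at 198 and 272 CPM in the tt3 lines and so not low there. TT1 had no count in any library. As a marker of other tissues, the seed oil-body gene OLEO1 ranged from 87.0 to 1185 CPM in tt8 and from 12.4 to 1893 CPM in the others. Of the endodermal genes, CASP1 ranged from 11.6 to 31.5 CPM in tt8 and from 2.62 to 77.1 CPM in the others. MYB36 ranged from 7.00 to 17.2 CPM in tt8 and from 3.13 to 29.9 CPM in the others. SCR varied less, from 25.1 to 33.5 CPM in tt8 and from 26.3 to 34.6 CPM in the others. Of the floral genes, AG had at most 1 count in any library, AP3 at most 15, PI at most 33 and SEP3 at most 84. Of the green-shoot genes, LHCB1.1 had at most 6 counts in any library, which near-identical copies make uncertain. LHCB4.1 ranged from 31.2 to 113 CPM in tt8 and from 26.4 to 79.2 CPM in the others, and RBCS1A ranged from 123 to 323 CPM in tt8 and from 84.2 to 206 CPM in the others. Seedlings are mixed tissue, where fewer cells of a type and less RNA per cell cannot be told apart.

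Sequences upstream of the genes on which the comparison turns are shown first, because TT8 acts at promoters and bHLH proteins are known to bind the E-box CANNTG, of which the G-box CACGTG is the best known form. TT8 is the gene for which the tt8 lines are labelled, DFR is the entry to the late branch, and UGT79B1 and 5MAT are late genes that were higher in most tt8 lines. Each run gives the 250 bases before the annotated start in TAIR10.1, read 5′ to 3′ on the strand of the gene, with every E-box in capitals.
TT8, chr4:6181631-6181880, plus strand: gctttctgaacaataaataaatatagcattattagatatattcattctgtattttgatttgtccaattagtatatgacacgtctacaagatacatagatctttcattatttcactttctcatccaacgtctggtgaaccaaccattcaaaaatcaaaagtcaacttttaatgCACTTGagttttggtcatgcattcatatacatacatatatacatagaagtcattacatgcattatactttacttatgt
DFR, chr5:17166033-17166282, minus strand: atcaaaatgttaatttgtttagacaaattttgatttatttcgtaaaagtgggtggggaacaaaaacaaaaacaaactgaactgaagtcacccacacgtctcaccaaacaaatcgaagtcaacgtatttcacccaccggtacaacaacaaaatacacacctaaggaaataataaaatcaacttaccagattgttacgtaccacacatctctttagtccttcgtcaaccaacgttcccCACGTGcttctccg
UGT79B1, chr5:21938397-21938646, minus strand: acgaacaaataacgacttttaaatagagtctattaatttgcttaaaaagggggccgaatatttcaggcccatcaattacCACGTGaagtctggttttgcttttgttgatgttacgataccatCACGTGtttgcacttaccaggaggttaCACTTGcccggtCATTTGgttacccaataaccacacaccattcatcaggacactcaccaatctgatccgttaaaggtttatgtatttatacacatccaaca
5MAT, chr3:11400333-11400582, minus strand: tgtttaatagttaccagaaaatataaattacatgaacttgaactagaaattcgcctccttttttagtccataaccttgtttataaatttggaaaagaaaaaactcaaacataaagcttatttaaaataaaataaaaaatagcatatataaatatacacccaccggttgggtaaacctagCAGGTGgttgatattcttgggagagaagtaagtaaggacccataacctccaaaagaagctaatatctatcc

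UGT79B1 carried 4 E-boxes in this window, 2 of them G-boxes, whereas DFR carried 1, a G-box, and TT8 and 5MAT carried 1 E-box each. Both motifs read the same on either strand as patterns, and a G-box is counted among the E-boxes. Of 27443 protein-coding genes in the annotation, 55.3% had an E-box in the same window, with a median of 1 per gene, and 6.49% had a G-box. The window of SCPL10 held 2 E-boxes, 1 of them a G-box, and those of LDOX and GSTF5 held none. These genes are described below. A match in these letters is a description of the sequence and not a bound site. Whether the motifs bear on the transcript levels was not tested.

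The transcript of TT8 itself (AT4G09820, chr4:6181881-6186523, plus strand) was not uniformly low in the tt8 lines. It stood at 31.3 (tt8-7), 108 (tt8-8), 8.50 (tt8-9), 71.4 (tt8-10), 6.77 (tt8-11) and 39.8 CPM (tt8-12). In the other lines it was 10.3 CPM in ban-6, 16.3 in ban-7, 19.3 in tt1-4, 36.5 in tt1-5, 17.2 in tt3-3, 20.0 in tt3-4, 17.0 in tt5-3 and 14.7 in tt5-4. Thus tt8-8, tt8-10 and tt8-12 lay above all 8 others, tt8-9 and tt8-11 lay below all of them, and tt8-7 fell inside their range. The exact 95% Poisson intervals, which cover counting error only, were 7.21 to 9.95 CPM for tt8-9 and 5.72 to 7.96 CPM for tt8-11, against 8.66 to 12.3 CPM for ban-6. The interval of tt8-11 ended below that of ban-6, and that of tt8-9 overlapped it.

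**Figure D1:**
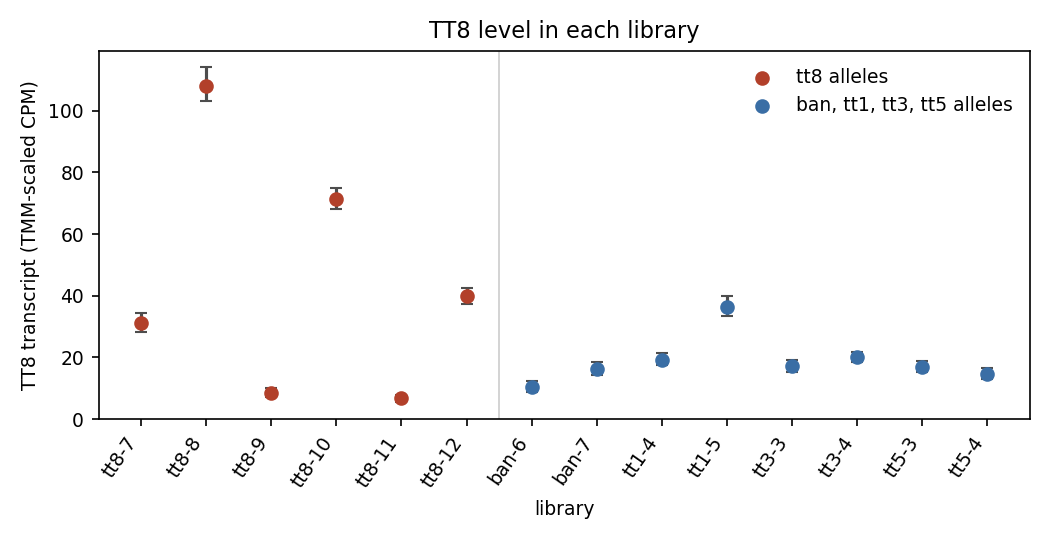
TT8 transcript level in TMM-scaled CPM for each library, with exact 95% Poisson intervals as bars, the 6 tt8 alleles to the left of the line. The tt8 alleles run from 6.77 CPM in tt8-11 to 108 CPM in tt8-8 and lie on both sides of the other alleles.

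The order of the tt8 alleles in TT8 level, from low to high, was tt8-11, tt8-9, tt8-7, tt8-12, tt8-10 and tt8-8. The intervals of tt8-11 and tt8-9 overlapped, and all the other neighbours in that order were separate. The highest tt8 library stood 16.0-fold above the lowest, against 3.53-fold among the other 8. On log2(CPM + 0.5), which narrows the range of weakly counted genes, TT8 spanned 3.90 in the tt8 libraries and 1.77 in the others. Of the 19745 genes tested, 0.436% had a range at least as wide on this scale in the tt8 libraries, and 16.0% in the others. The mean log2 CPM was higher by 0.68 in the tt8 libraries, and an exact two-sided permutation test over all 3003 assignments gave p = 0.267, with 6.66e-04 as the smallest p possible. Among SALK lines alone (4 tt8 and 4 others) the difference was 0.52 and the exact permutation p was 0.657, with 0.0286 as the smallest possible. Without tt8-8 it was 0.31, without tt8-10 it was 0.43, and without tt8-9 or tt8-11 it was 1.03 or 1.09.

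Genes beside TT8 did not share this spread. AT4G09830, the next gene downstream, ranged from 51.9 to 67.8 CPM in tt8 and from 48.4 to 64.2 CPM in the others. RPS18C, a ribosomal protein gene upstream, ranged from 113 to 131 CPM in tt8 and from 101 to 126 CPM in the others. Within this narrow range RPS18C was highest in tt8-9 and lowest in tt8-8, the line with the most TT8. AT4G09810, a nucleotide-sugar transporter gene that overlaps the end of RPS18C, lay between 2.87 and 3.93 CPM in tt8 and between 2.95 and 6.12 CPM in the others. AT4G09840 lay between 1.32 and 2.07 CPM in tt8 and between 1.47 and 2.84 CPM in the others. The remaining neighbours, AT4G05735 and AT4G09850, had 0 and at most 7 counts in any library.

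Across all genes no difference between the sides passed the test. Of 19745 genes tested with edgeR's quasi-likelihood test, 0 (0%) had a Benjamini-Hochberg adjusted p under 0.05, and the smallest adjusted p was 1.000. At an unadjusted p under 0.05 there were 441 genes (2.23%), 183 higher and 258 lower in tt8. These are not read as a set of changed genes, and their number was 285 without tt8-7 and 824 without ban-7. DESeq2 called 1 of 27868 genes (0.00359%), GSTF5. For TT8 itself the edgeR fold change was 1.23 ± 0.51 (SE). All fold changes below are edgeR estimates, tt8 over the other lines on the log2 scale, and every tested gene that is named has an edgeR adjusted p of 1.000 in this fit. The standard errors (SE) were worked back from the fold change and the F statistic of the test.

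GSTF5 (AT1G02940, chr1:662963-664290), a phi-class glutathione S-transferase, stood at 2.94 (tt8-7), 1.16 (tt8-8), 5.69 (tt8-9), 4.21 (tt8-10), 4.70 (tt8-11) and 4.39 CPM (tt8-12). The other 8 ran from 0.855 to 1.89 CPM with a median of 1.53. All tt8 alleles but tt8-8 lay above all 8 others, and tt8-8 lay within their range. The log2 fold change was 1.41 ± 0.28 (SE), and DESeq2 gave 1.42 with an adjusted p of 0.0240. Without tt8-8, edgeR also called it, at 1.59 with an adjusted p of 0.0354. The level was low, at most 108 counts in a library. GSTF5 was named after its values were seen, and it did not track TT8 upward: tt8-9 and tt8-11 had the least TT8 and the highest GSTF5, and tt8-8 had the most TT8 and the lowest GSTF5.

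The late anthocyanin genes split the tt8 alleles one from another. Per library, the median log2 ratio of the 11 late genes to the median of the 8 others was -1.06 (tt8-7), -0.81 (tt8-8), 0.90 (tt8-9), 1.13 (tt8-10), 0.80 (tt8-11) and 0.78 (tt8-12). The same quantity ran from -0.87 in ban-6 to 0.50 in tt1-5 among the other lines. So tt8-9, tt8-10, tt8-11 and tt8-12 lay above every other library and tt8-7 lay below every other library, with tt8-8 next to ban-6. Between sides, 8 of the 11 genes had a fitted fold change above 0, with a median of 0.49 against -0.01 over all genes tested. That median was 0.32 without tt8-10 and 0.27 with the oleosin level, given below, as a term, and 0.77 without the tt1 lines. Of the 11, 3 reached an unadjusted p under 0.05 in edgeR, against 2.23% of all genes tested. Of the 11, 0 passed edgeR's adjusted threshold, nor did any pass in DESeq2. Over all 19745 genes tested, 9028 had a fitted fold change above 0 and 10717 below 0. Genes of a list are read in the same libraries, so counts of members, here and for the lists below, are not independent.

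DFR (AT5G42800), the first enzyme of the late branch, stood at 35.2 (tt8-7), 34.2 (tt8-8), 253 (tt8-9), 258 (tt8-10), 201 (tt8-11) and 191 CPM (tt8-12). In the others it ranged from 45.5 to 272 CPM with a median of 204. The tt8-7 and tt8-8 lines were below all others, and the remaining 4 tt8 lines were within their range, including both lines with the least TT8 transcript. The fold change was -0.21 ± 0.49 (SE) and turned to 0.32 among SALK lines alone.

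LDOX (AT4G22880, the TDS4 locus), which makes anthocyanidins, was at 28.1 (tt8-7), 33.5 (tt8-8), 138 (tt8-9), 181 (tt8-10), 125 (tt8-11) and 139 CPM (tt8-12), against 20.1 to 94.1 CPM with a median of 67.7 in the others. Here 4 tt8 lines lay above all 8 others and tt8-7 and tt8-8 lay in the lower part of their range. The fold change was 0.78 ± 0.42 (SE). GSTF12 (TT19), a glutathione S-transferase needed to carry anthocyanin to the vacuole, was at 18.9 (tt8-7), 35.6 (tt8-8), 128 (tt8-9), 149.7 (tt8-10), 119 (tt8-11) and 117 CPM (tt8-12), against 29.8 to 121 CPM with a median of 68.3 in the others. For this gene tt8-7 was lowest of the 14 and tt8-9 and tt8-10 were highest, with a fold change of 0.49 ± 0.42.

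**Figure D2:**
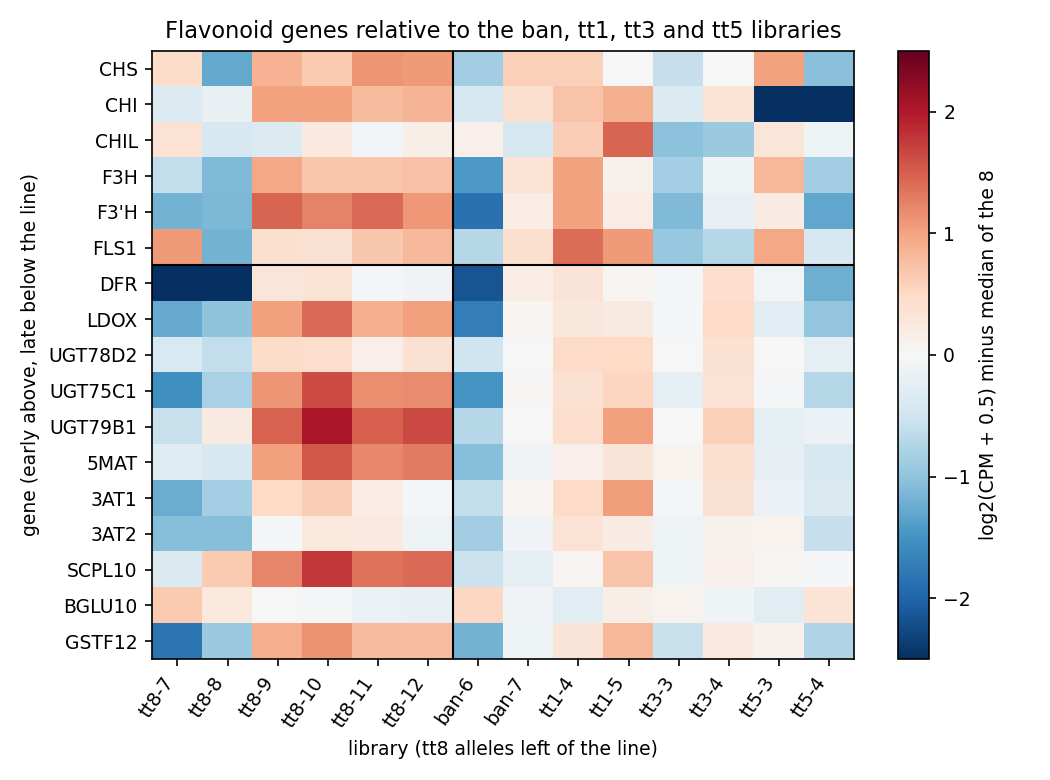
Early (above the line) and late (below it) flavonoid genes in each library, as log2(CPM + 0.5) minus the median of the 8 ban, tt1, tt3 and tt5 libraries, with tt8 alleles on the left and colours capped at 2.5. The columns of tt8-7 and tt8-8 are blue for DFR, LDOX and GSTF12, and those of tt8-9 to tt8-12 are red for LDOX, UGT79B1, 5MAT and SCPL10.

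Among the enzymes that decorate anthocyanins, the sugar and acyl transferases UGT79B1, 5MAT and SCPL10 had the largest fold changes of the late list and were the 3 with an unadjusted p under 0.05. UGT79B1, which adds xylose to the anthocyanin sugar, was at 17.5 (tt8-7), 30.6 (tt8-8), 72.8 (tt8-9), 109 (tt8-10), 74.1 (tt8-11) and 82.2 CPM (tt8-12), against 15.7 to 53.8 CPM with a median of 26.0 in the others. It stood above all others in 4 tt8 alleles and within their range in tt8-7 and tt8-8, with a fold change of 1.09 ± 0.36 (SE). 5MAT, the malonyltransferase, was at 19.6 (tt8-7), 18.1 (tt8-8), 50.1 (tt8-9), 72.3 (tt8-10), 56.2 (tt8-11) and 60.0 CPM (tt8-12), against 11.3 to 32.3 CPM with a median of 24.2 in the others. Its order of alleles was close to that of UGT79B1, and its fold change was 0.97 ± 0.31. SCPL10, the sinapoyltransferase of anthocyanins, was at 11.3 (tt8-7), 23.4 (tt8-8), 34.7 (tt8-9), 51.4 (tt8-10), 38.6 (tt8-11) and 40.3 CPM (tt8-12), against 9.95 to 24.5 CPM with a median of 14.7 in the others. Here tt8-8 also stood near the top of the other lines, and the fold change was 1.14 ± 0.27. SCPL10 belongs to a cluster of similar genes, whose shared reads make its level uncertain.

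The other decorating enzymes had smaller fold changes. UGT75C1, the anthocyanin 5-O-glucosyltransferase, was at 11.4 and 19.3 CPM in tt8-7 and tt8-8 and at 74.0 to 106 CPM in the remaining tt8 lines, against 12.0 to 49.8 CPM in the others. Its fold change was 0.87 ± 0.43 (SE). UGT78D2, the flavonoid 3-O-glucosyltransferase, ranged from 26.4 to 56.4 CPM in tt8 and from 28.7 to 57.8 CPM in the others, with a fold change of 0.01 ± 0.20. The coumaroyltransferases 3AT1 (4.88 to 19.2 CPM in tt8, 7.85 to 25.8 CPM in the others) and 3AT2 (3.86 to 10.5 CPM in tt8, 4.51 to 11.2 CPM in the others) were lowest of all 14 libraries in tt8-7 and tt8-8. The acyl-glucose-dependent glucosyltransferase BGLU10 ran the other way across alleles, at 63.3 CPM in tt8-7 and 48.1 in tt8-8 and at 35.0 to 40.2 CPM in the other tt8 lines, against 32.8 to 57.9 CPM in the others.

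Transcripts of the oleosins, the coat proteins of seed oil bodies, were lowest in the libraries where the late genes were lowest. The mean log2 CPM of 4 oleosin genes was 6.33 (tt8-7), 6.88 (tt8-8), 8.24 (tt8-9), 8.17 (tt8-10), 8.92 (tt8-11) and 8.69 (tt8-12). It was 4.82 in ban-6, 8.48 in ban-7, 9.34 in tt1-4, 8.23 in tt1-5, 7.59 in tt3-3, 8.39 in tt3-4, 8.45 in tt5-3 and 5.93 in tt5-4. The 4 libraries with the lowest oleosin level, tt8-7, tt8-8, ban-6 and tt5-4, were also the 4 with the lowest late-gene median. The wider list of 13 seed storage and oil-body genes did not divide the tt8 lines in this way, with a median log2 ratio to the median of the 8 others of 0.40 (tt8-7), -1.23 (tt8-8), -0.07 (tt8-9), -0.02 (tt8-10), -0.03 (tt8-11) and -0.34 (tt8-12). With the oleosin level as a term in the fit, the fold change was 0.57 for LDOX, 0.92 for UGT79B1, 0.82 for 5MAT, 1.03 for SCPL10 and -0.46 for DFR. Each kept its sign, and no gene passed edgeR's adjusted threshold in that fit.

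TT8 was related to GSTF12 among the 8 other lines, and no relation with a target passed the test among the tt8 lines. Over the 8 others, on log2(CPM + 0.5), TT8 had Pearson's r = 0.90 and Spearman's rho = 0.90 with GSTF12 (exact permutation p adjusted over the 8 relations computed, 0.0103 and 0.0365). For LDOX the coefficients were 0.74 and 0.86 (adjusted exact permutation p 0.178 and 0.0429), for DFR 0.67 and 0.74 (0.217 and 0.122), and for CHS, chalcone synthase of the early branch, 0.34 and 0.40 (0.514 and 0.523). Leaving out ban-6 and tt1-5, the libraries farthest from the median TT8 level, r was 0.81 for GSTF12, 0.91 for LDOX, 0.84 for DFR and 0.41 for CHS (n = 6). The points share libraries, each insertion collection holds too few of them for a coefficient of its own, and ban-6, lowest in TT8, also had the lowest oleosin level.

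**Figure D3:**
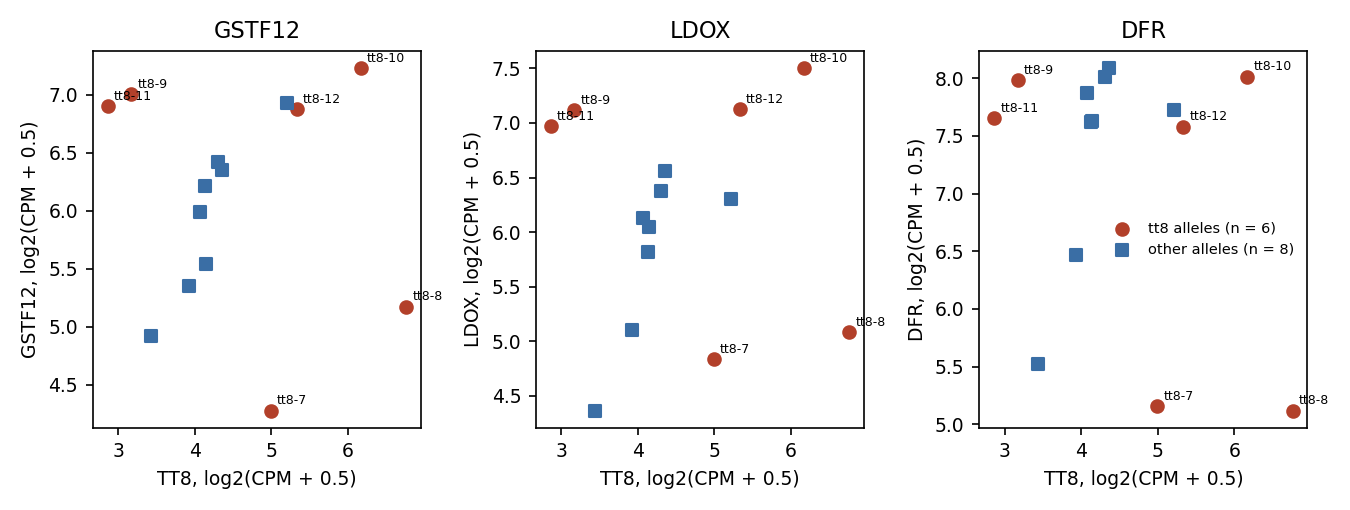
TT8 against GSTF12, LDOX and DFR, all as log2(CPM + 0.5), with the 6 tt8 libraries as labelled circles and the 8 others as squares. Among the squares GSTF12 is higher where TT8 is higher (r = 0.90), while tt8-9 and tt8-11 have the least TT8 with high target levels and tt8-8 has the most TT8 with low ones.

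In the 6 tt8 lines all 4 values of Pearson's r were below 0, at -0.47 for DFR, -0.36 for LDOX, -0.34 for GSTF12 and -0.67 for CHS, and none had an adjusted p under 0.05 by the exact permutation test (0.217 to 0.514). Spearman's rho was -0.31 for DFR, 0.14 for LDOX, -0.14 for GSTF12 and -0.71 for CHS (adjusted exact permutation p 0.272 to 0.803). Without tt8-9 and tt8-11, the lines farthest from the median TT8 level, r was -0.05 for DFR, 0.03 for LDOX, 0.19 for GSTF12 and -0.75 for CHS, so that the values for the 3 late genes rested on those lines. The lines tt8-9 and tt8-11 combined the lowest TT8 levels of the 14 with GSTF12 at 128 and 119 CPM. In contrast, tt8-8 combined the highest TT8 level with GSTF12 at 35.6 CPM. Whether the relation differs between the tt8 lines and the others was not tested.

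Of the 6 early flavonoid genes, 5 had a fitted fold change above 0, against 9028 of the 19745 genes tested. Their median was 0.42, and 0 reached an unadjusted p under 0.05 in edgeR or an adjusted call in DESeq2. CHS stood at 1093 (tt8-7), 325 (tt8-8), 1444 (tt8-9), 1246 (tt8-10), 1696 (tt8-11) and 1669 CPM (tt8-12), against 382 to 1586 CPM with a median of 794 in the others. It was lowest of all 14 in tt8-8 and was not low in tt8-7, unlike DFR. F3'H (TT7), the flavonoid 3'-hydroxylase that sets the quercetin and cyanidin type, was at 40.4 (tt8-7), 41.9 (tt8-8), 253 (tt8-9), 219 (tt8-10), 245 (tt8-11) and 196 CPM (tt8-12), against 24.9 to 184 CPM with a median of 92.5 in the others. Its alleles divided as those of LDOX did, with a fold change of 0.96 ± 0.50 (SE).

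F3H (TT6), flavanone 3-hydroxylase, ranged from 73.3 to 310.5 CPM in tt8 and from 58.1 to 319 CPM in the others. CHI ranged from 34.0 to 87.5 CPM in tt8, against 4.18 to 81.4 CPM in the others, where the 2 tt5 lines set the lower end. The tt8 lines thus lay inside the range of the others for F3H. FLS1, flavonol synthase, was at 63.9 CPM in tt8-7 and 13 in tt8-8 with 39.6 to 53.3 CPM in the other tt8 lines, against 15.5 to 80.2 CPM in the others. CHIL, which assists chalcone synthase, ranged from 10.5 to 18.0 CPM in tt8 and from 6.64 to 39.2 CPM in the others. CHS, FLS1 and CHIL were thus lower in tt8-8 than in tt8-7, while CHI (34.0 CPM in tt8-7 and 37.9 CPM in tt8-8) and F3'H were close in both. The median log2 ratio of the 6 genes was -1.12 in tt8-8 and close to 0 in tt8-7.

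Levels of the partners of TT8 and of the MYB regulators overlapped between the sides. Of 17 regulators, 12 passed the filter on low counts, and TT8 was the 1 with an unadjusted p under 0.05. TTG1 ranged from 22.9 to 28.5 CPM in tt8 and from 22.1 to 28.9 CPM in the others. The related bHLH genes GL3 (3.02 to 7.70 CPM in tt8, 3.97 to 5.99 CPM in the others), EGL3 (2.47 to 7.62 CPM in tt8, 4.23 to 10.9 CPM in the others) and MYC1 (2.09 to 5.44 CPM in tt8, 2.72 to 6.62 CPM in the others) overlapped likewise. EGL3 was lowest of the 14 libraries in tt8-8, the line with the most TT8 transcript.

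PAP1 (MYB75), a MYB activator of anthocyanin genes, was at 20.9 (tt8-7), 9.79 (tt8-8), 11.6 (tt8-9), 14.8 (tt8-10), 9.35 (tt8-11) and 9.68 CPM (tt8-12), against 3.92 to 13.7 CPM with a median of 8.17 in the others. All 6 tt8 lines lay above that median and 2 lay above all others, and the line with the most PAP1, tt8-7, had little LDOX and GSTF12. PAP2 ranged from 18.9 to 39.7 CPM in tt8 and from 10.6 to 52.1 CPM in the others, and MYB113 from 1.01 to 7.51 CPM in tt8 and from 0.700 to 8.99 CPM in the others. PAP2, MYB113 and MYB114 lie close together and are similar in sequence, so reads between them are uncertain. MYB12, a MYB activator of flavonol genes, ranged from 6.71 to 23.3 CPM in tt8 and from 4.56 to 24.9 CPM in the others. The seed coat regulators TT2 and TT16 reached at most 1 and 3 counts. Of the inhibitors of the complex, 7 of 10 passed the filter and 1 had an unadjusted p under 0.05, the LBD gene LBD38, at 4.69 to 7.36 CPM in tt8 and 4.31 to 24.5 CPM in the others. MYBL2, a repressor known to be induced with the pathway, was at 7.51 CPM in tt8-7, 10.0 in tt8-8 and 11.3 to 17.3 CPM in the other tt8 lines, against 5.74 to 19.0 CPM in the others.

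Few genes separated all 6 tt8 libraries from all 8 others. Every tt8 library lay above the others in 4 genes (0.0203% of those tested) and below them in 1 (0.00506%). A random split of the libraries into 6 and 8 separates a gene fully, in either direction, with a probability of 6.66e-04. These shares do not exceed that, so the genes are described here and not read as tied to tt8. MES10 (AT3G50440), a methylesterase gene, was at 218 (tt8-7), 222 (tt8-8), 254 (tt8-9), 209 (tt8-10), 244 (tt8-11) and 237 CPM (tt8-12), against 107 to 207 CPM with a median of 172 in the others. The gap between tt8-10 and ban-7, at 209 and 207 CPM, was small, and the fold change was 0.44 ± 0.13 (SE). KAC2 (AT5G65460), a kinesin-like protein for chloroplast movement along actin, ranged from 22.4 to 25.0 CPM in tt8 and from 25.9 to 31.3 CPM in the others, with a fold change of -0.24 ± 0.06. The other 3 were the weakly counted AT1G08507 (2.97 to 6.11 CPM in tt8, 1.63 to 2.87 CPM in the others), AT4G26488 (0.737 to 1.32 CPM in tt8, at most 0.680 CPM in the others) and AT3G04700 (0.691 to 0.929 CPM in tt8, 0.453 to 0.649 CPM in the others). AT4G26488 and AT3G04700 fell outside the rule for named genes and were chosen after their values were seen. Such counts rest on single libraries. The number above was 7 without tt8-7, 8 without tt8-8 or tt8-11 and 9 without tt8-9. The number below was 7 without ban-7, and without any library other than tt8-10, tt8-11 or tt1-5 it was 2 or more.

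**Figure D4:**
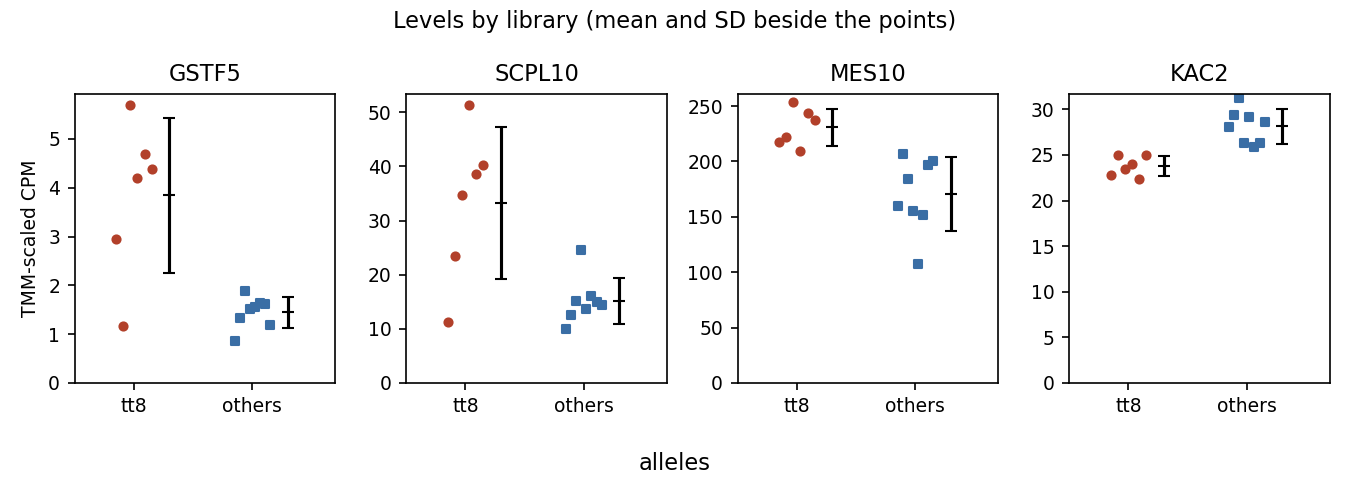
TMM-scaled CPM of GSTF5, SCPL10, MES10 and KAC2 in each library, tt8 alleles as circles on the left of each panel and the other alleles as squares, with mean and SD beside the points. MES10 and KAC2 do not overlap between the sides, whereas 1 tt8 allele for GSTF5 and 2 for SCPL10 lie within the range of the others.

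Other pathways were set beside these, with 0 of their genes passing in edgeR or in DESeq2. At the entry to phenylpropanoid synthesis, 4CL3, the coumarate ligase tied to flavonoids, was at 8.43 (tt8-7), 8.48 (tt8-8), 25.1 (tt8-9), 39.6 (tt8-10), 26.7 (tt8-11) and 29.7 CPM (tt8-12), against 6.53 to 21.9 CPM in the others. It divided the alleles as LDOX did, with a fold change of 0.89 ± 0.36 (SE), whereas 4CL1 and 4CL2, the ligases tied to lignin, did not, at 49.7 to 154 CPM and 22.9 to 44.9 CPM in tt8, against 51.8 to 257 CPM and 20.4 to 90.2 CPM in the others. All 7 lignin genes had a fitted fold change below 0, against 10717 of the 19745 genes tested. Their median was -0.18, and it was -0.07 without ban-6, -0.11 without tt5-3 and -0.09 without tt5-4. Of 11 jasmonate genes tested, 9 had a fitted fold change above 0, against 9028 of all genes tested, with a median of 0.28 that was close to 0 among SALK lines alone. JAZ2, a repressor of jasmonate signalling, ranged from 45.5 to 80.5 CPM in tt8 and from 33.1 to 65.3 CPM in the others. AHA10, a proton pump of the tannin pathway in seeds, ranged from 0.688 to 1.54 CPM in tt8 and from 1.21 to 2.30 CPM in the others, and all 6 tt8 lines lay below the median of the others.

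Of 13 seed storage and oil-body genes, 11 had a fitted fold change below 0, against 10717 of the 19745 genes tested. Their median was -2.39, and 8 had an unadjusted p under 0.05 in edgeR, against 2.23% of all genes. The median was -1.03 without tt1-4, 0.02 without both tt1 lines, -0.85 with 5 locus groups, -1.30 with the oleosin term and -0.94 in DESeq2. OLEO1, a gene of this list, is part of the oleosin term, so that setting is not independent of these genes. Their summed level ran from 1449 to 4072 CPM in tt8 and from 438 to 24470.1 CPM in the others, and tt1-4 alone held the upper end, with tt1-5 next at 5913 CPM. The albumin gene SESA5, for instance, ranged from 14.8 to 97.5 CPM in tt8, against 6.61 to 5554 CPM with a median of 36.8 in the others. The summed level of the tt8 lines thus lay inside the range of the other lines, and the albumin genes are near copies whose reads are uncertain. Glucosinolate genes had a median fold change of -0.67, or -0.44 without ban-6, and CYP83A1, an enzyme of aliphatic glucosinolate synthesis, ranged from 0.0552 CPM in tt8-9 to 2.31 CPM in tt8-8, against 0.128 to 22.8 CPM in the others.

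Distances between single tt8 libraries overlapped those between lines of different loci. The number of genes at least 4-fold apart had a median of 182 over the 15 pairs of tt8 libraries (4 to 650), 233 over the 48 pairs of a tt8 with another library (17 to 1132) and 286.5 over the 28 pairs among the others (34 to 1505). The most distant tt8 pair was tt8-7 and tt8-9. The closest pair, tt8-11 and tt8-12, differed by this measure in 4 of the 19745 genes. TT8 itself was among them, at 6.77 CPM in tt8-11 and 39.8 CPM in tt8-12.

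**Figure D5:**
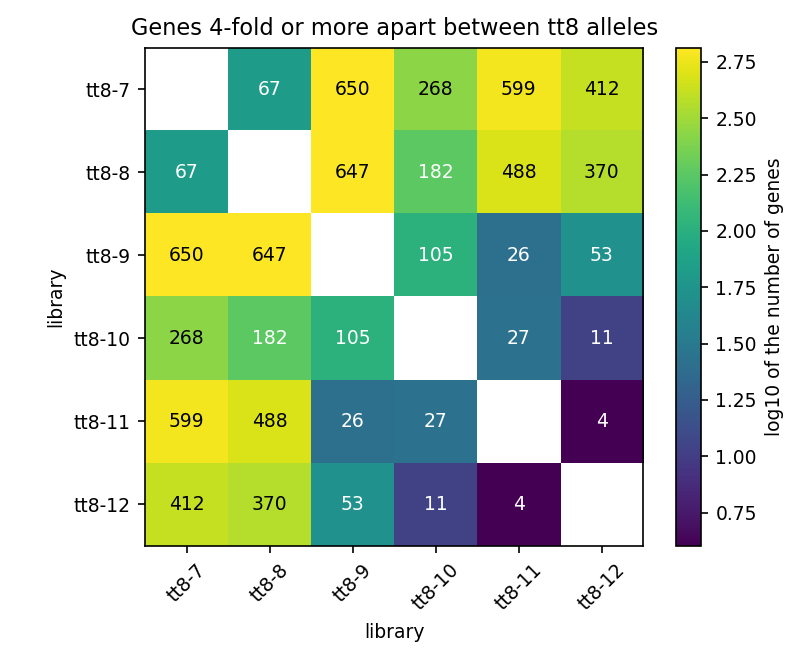
Number of genes at least 4-fold apart in TMM-scaled CPM for each pair of tt8 libraries, coloured on a log10 scale. The numbers run from 4 for tt8-11 with tt8-12 to 650 for tt8-7 with tt8-9, and tt8-7 and tt8-8 stand apart from the other 4 alleles.

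The lines tt8-11 and tt8-12 come from different insertion collections, SALK and SAIL, and late anthocyanin genes were alike in them, with LDOX at 125 CPM in tt8-11 and 139 CPM in tt8-12 and UGT79B1 at 74.1 CPM in tt8-11 and 82.2 CPM in tt8-12. The other 3 genes that set them apart were named after their values were seen. AT5G24240, annotated as a phosphatidylinositol 4-kinase gamma-like protein, was at 1.71 CPM in tt8-11 and 35.7 in tt8-12, and of the remaining libraries only tt3-3 was high, at 41.4 CPM. MEE65 was at 1.52 CPM in tt8-11 and 7.89 in tt8-12, and AT1G75945 at 8.99 CPM in tt8-11 and 0.122 CPM in tt8-12. Both of these followed the collection in all 14 libraries. MEE65 was at 4.41 to 8.47 CPM in the 5 SAIL lines and at 2.36 CPM or less in the SALK and GK lines, and AT1G75945 was at 1.57 CPM or less in the SAIL lines and at 4.80 CPM or more in the rest.

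Genes in which a single library stood at least 4-fold outside all 13 others were few among the 32547 loci and not particular to tt8. By the same rule ban-6 had 8 below and 3 above, ban-7 had 2 below and 3 above, and tt1-4 had 14 above. The line tt1-5 had 2 below, tt3-3 had 2 above, tt5-3 had 3 above, tt5-4 had 1 above and tt3-4 had 0. The line tt8-7 had 4 above, among them PSK4, a phytosulfokine peptide precursor, at 154 CPM against 12.7 to 33.4 CPM in the ban, tt1, tt3 and tt5 lines. It also had 1 below, the laccase gene LAC7, at 2.79 CPM against 13.4 to 97.9 CPM in the ban, tt1, tt3 and tt5 lines. The line tt8-9 had 2 below, MEF8 and the protein kinase gene AT2G31010. MEF8 was at 0.718 CPM, against 6.37 to 9.83 CPM in the ban, tt1, tt3 and tt5 lines and 5.11 CPM in tt8-7. AT2G31010 was at 1.60 CPM, against 8.04 to 10.2 CPM in the ban, tt1, tt3 and tt5 lines and 10.5 CPM in tt8-10. The line tt8-10 had 1 below, AT1G35780, a lysine methyltransferase gene. It was at 1.03 CPM, against 12.0 to 33.8 CPM in the ban, tt1, tt3 and tt5 lines and 43.7 CPM in tt8-7. The lines tt8-8, tt8-11 and tt8-12 had 0, and TT8 was not among these genes for any allele.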

How the data were processed

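Counts per gene were deposited by the authors, 1 file per library. Per the submitters' processing notes HISAT2 and the build TAIR10 were used. The sources used here do not give the counting program, annotation or strand setting, so reads of overlapping genes and near-identical copies are uncertain. Of 33939 identifiers, 32547 were loci, all matched to TAIR10.1, and 1392 small RNA entries (0.00637% to 0.0178% of counts) stayed out of library sizes and tests. Totals were 13076113 to 27145377. A floor of 3 counts was 0.110 to 0.233 CPM.

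The members and gene lists (18) were chosen with earlier results of these data known. Genes were tested with edgeR 4.0.16 (R 4.3.3): TMM scaling, factors 0.915 to 1.07, filterByExpr by side, a 2-sided design with 12 residual degrees of freedom, robust quasi-likelihood F-test, two-sided, Benjamini-Hochberg adjustment at 0.05. Scripts were tested on simulated data. Genes named were TT8, genes not overlapping between sides with a mean of 1 CPM or more, members of the early, late and regulator lists, up to 4 of each other list, the 3 nearest loci on each side of TT8 and up to 3 genes private to a library per direction. Within each side, every pair of libraries differed beyond sampling noise (chi-square over degrees of freedom 9.54 to 167). DESeq2 1.42.0, RLE factors, other filters and designs, and left-out libraries were alternatives.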

Additional observations from a re-analysis of the deposited data

Results flagged for a closer look

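Of 204 groups of levels examined, 23 held a library whose gap to its nearest neighbour, on log2(CPM + 0.5), exceeded Dixon's critical value. The nominal rate is about 5%, but the number cannot be set against it. The groups share libraries, and PSK4, MEF8, AT2G31010 and AT1G35780 were named because 1 library stood apart in them. FRO2 was named after its values were seen. All values are CPM. In tt8-8 these were CHS (325), FLS1 (13), EGL3 (2.47) and the light-harvesting gene LHCB6 (11.2), the first 3 low and the last high among tt8 lines. In tt8-9 they were 4CL1 (49.7), AOS (60.2), JAZ1 (234), CYP83A1 (0.0552), PI (0.0552), MEF8 (0.718) and AT2G31010 (1.60), all low, and RPS18C (131), high. In tt8-7 they were RBCS1A (323), PSK4 (154) and the ferric reductase gene FRO2 (98.7), all high, and in tt8-10 AT1G35780 (1.03), low. Among the other lines, tt3-3 was low for MES10 (107) and high for JAZ1 (394) and HSP18.2 (43.8). Further such values were AT1G08507 in ban-6 (1.63), LHCB6 in ban-7 (0.830) and PSK4 in tt1-4 (12.7), all low, and AT4G09810 in tt1-5 (6.12), high.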

How the results depend on the processing

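No gene passed at an adjusted p under 0.05 in edgeR in any fit of all 14 libraries, whether with RLE factors, with no filter beyond 1 count, with 5 locus groups, or with the oleosin level, the line ends of the files or the insertion collection as a term. DESeq2 called 1, and leaving out single libraries gave 0 to 1. At an unadjusted p under 0.05 the count was 765 with no filter, 720 with the oleosin term, 2306 among SALK lines alone, 1534 with the collection term (chosen after seeing the data), 682 without the tt1 lines, 783 without the tt3 lines and 734 with DESeq2, and 285 to 824 over single libraries left out. Genes above all others numbered 4 to 9 over left-out libraries, and genes below 1 to 7, with 2 under RLE factors and 3 as CPM of the total count. At 8-fold, the genes private to tt8-7 (above and below) and to tt8-9 fell to 0. Fold changes near 0 changed sign. CHIL was 0.29 without the tt1 lines and -0.32 to 0.12 over left-out libraries. FLS1 was -0.37 in SALK lines, -0.01 without ban, -0.14 without tt3 and -0.03 to 0.34 over left-out libraries. DFR was 0.32 in SALK lines. UGT78D2 was -0.05 with the oleosin term, -0.09 without ban, -0.06 without tt5 and -0.07 to 0.12 over left-out libraries. For 3AT1 it was 0.10 without tt1, and for 3AT2 0.09 in SALK lines and 0.01 without tt1. BGLU10 was -0.19 in SALK lines, -0.06 with the collection term and -0.08 to 0.13 over left-out libraries. The cause was not tested. No paired analysis was possible because each library is a different allele and the replicate numbers only name the libraries. Depth limits genes near the floor of 3 counts, such as TT2 and AT4G26488.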

Other observations

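The bHLH genes of the iron-deficiency response given here divided the tt8 alleles as the late genes did, but with tt8-7 and tt8-8 high. They and FRO2 lie outside the rule for named genes and were picked from their values. BHLH100, a bHLH gene induced when iron is short, stood at 659 (tt8-7), 113 (tt8-8), 1.66 (tt8-9), 4.60 (tt8-10), 4.06 (tt8-11) and 9.88 CPM (tt8-12). In the other lines it ranged from 5.26 to 163 CPM with a median of 10.3, and the high lines were tt1-5, ban-6 (80.5) and tt5-4 (53.6). The related genes bHLH38 (235 CPM in tt8-7 and 60.6 in tt8-8, 4.73 to 11.2 in the other tt8 lines, 4.96 to 81.3 CPM in the ban, tt1, tt3 and tt5 lines) and bHLH39 (221 CPM in tt8-7 and 66.4 in tt8-8, 3.64 to 12.0 in the other tt8 lines, 5.87 to 98.5 CPM in the ban, tt1, tt3 and tt5 lines) followed it. FRO2, the root ferric reductase, was high in tt8-7 alone among the tt8 lines. It was at 98.7 CPM in tt8-7, 35.3 CPM in tt8-8 and 21.2 to 32.9 CPM in the other tt8 lines, against 15.2 to 43.3 CPM in the ban, tt1, tt3 and tt5 lines. These bHLH genes are close copies, so reads between them are uncertain. The lines high in BHLH100 include the 4 with the lowest oleosin level, and also tt1-5, whose oleosin level was not low at 8.23 mean log2 CPM. No gene of this group passed the test between the sides.

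SEP3, a floral MADS-box gene that seedlings should hardly express, was at 6.50 CPM in tt8-7 and at 0.783 to 1.93 CPM in the other tt8 lines, against 0.522 to 1.66 CPM in the ban, tt1, tt3 and tt5 lines. Heat shock genes stood highest in tt3-3. Among tt8 lines HSP22 was at 30.7 CPM in tt8-7, 32.6 in tt8-8 and 30.2 in tt8-11, and lowest at 5.63 CPM in tt8-9.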
